A study of Mus musculus with 2 samples.

Results

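The clustered histone genes of mouse AE9a leukemia cells are described here across the cell cycle and between 2 single-cell RNA libraries. Members were all genes whose symbol begins with Hist1h, Hist2h, Hist3h or Hist4h and that had at least 10 unique molecular identifiers (UMIs, 1 per captured RNA molecule) over both libraries. Of 31053 genes in the files, 67 carried such a symbol and 62 were members. They comprised 5 genes of the linker histone H1 and 57 core histone genes, of which 16 encode H2A, 16 H2B, 12 H3 and 13 H4. The 5 symbols below the minimum were Hist1h1t and Hist1h2bq, each with 0 UMIs, Hist1h2ba with 3, Hist1h2aa with 6 and Hist2h2aa2 with 9. The members just above it were Hist1h3h with 25 UMIs and Hist1h2ao with 28.

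The members lie in 4 groups on the mouse genome (build mm10). The Hist1 group on chromosome 13 holds 50 members between 21715763 and 23764406, and it gave 92.86% of the member UMIs in the control library and 92.99% in the other. The Hist2 group on chromosome 3 (96219865 to 96270132) holds 9 members and gave 5.80% and 5.82%. The Hist3 group on chromosome 11 (58948920 to 58956830) holds 2 members, and Hist4h4 stands alone on chromosome 6 (136801553 to 136804415).

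Fetal liver cells of Usp18+/f mice with a tamoxifen-inducible Cre recombinase (ER-Cre) driven by the ubiquitin C promoter were transformed with a retrovirus carrying AML1-ETO9a (AE9a), a truncated form of a leukemia fusion gene, together with GFP. The leukemia was passed on to sublethally irradiated recipients. Recipients then received 2 injections of oil, the control, or of tamoxifen, which activates Cre in the leukemia cells, so the cells of both groups carry AE9a, GFP and ER-Cre, and by the labels the floxed allele is intact in the oil group and deleted in the tamoxifen group. Spleen cells that were GFP+, negative for lineage markers and positive for c-Kit were sorted 3 days after the first injection, and the cells of 3 mice were pooled into 1 library per group. With 1 library per group, no spread between mice can be estimated and no p-value is given. The 95% intervals below cover counting error alone, and the libraries are called oil-labelled (Usp18+/f) and tamoxifen-labelled (Usp18+/Δ).

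Core histones form the spool on which DNA is wound, and H1 binds the DNA where it enters and leaves that spool. Most clustered histone genes are replication-dependent: they are transcribed in S phase, have no introns, and their RNAs end without a poly(A) tail, a few bases after a conserved stem-loop that binds the protein Slbp. Some clustered genes can also give a longer RNA that runs past the stem-loop and ends in a poly(A) tail, and such RNAs can be present outside S phase. The libraries were primed on runs of A, so the counts cover histone RNA that was captured in this way and not the whole of it.

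The stem-loop was found in the gene models (GENCODE M21, the same genome build) of 43 of the 62 members, in 8 variants. The commonest variant was present in 24 members, 3 of H1, 9 of H2A, 7 of H2B and 5 of H3, and none of the H4 genes had it. The next, in 7 members, was found in H4 genes alone. The stretches below are shown for the main variants and for genes the results turn on. The capitals mark the 16-base stem-loop, and each stretch is written 5′ to 3′ on the RNA strand.
Hist1h1e (chromosome 13, 23620629 to 23622558, minus strand): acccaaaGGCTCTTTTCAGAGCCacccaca
Hist1h1c (chromosome 13, 23738808 to 23740367, plus strand): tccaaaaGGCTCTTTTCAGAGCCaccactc
Hist1h2ab (chromosome 13, 23751126 to 23751598, plus strand): aaacaaaGGCTCTTTTCAGAGCCacccaca
Hist1h3c (chromosome 13, 23744973 to 23745602, minus strand): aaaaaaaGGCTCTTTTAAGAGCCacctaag
Hist1h4d (chromosome 13, 23581598 to 23582735, plus strand): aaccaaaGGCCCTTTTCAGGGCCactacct
Hist1h4i (chromosome 13, 22040636 to 22041362, minus strand): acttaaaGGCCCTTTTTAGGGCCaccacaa

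Runs of A stood in the models of several members with many UMIs, and they are shown because the libraries were primed on A. In the next stretches the capitals mark the longest run of A in the model.
Hist1h2ap (chromosome 13, 21833026 to 21833507, minus strand): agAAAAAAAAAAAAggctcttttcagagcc
Hist1h2ae (chromosome 13, 23570517 to 23571220, minus strand): tctaatctcgtAAAAAAAAcaaaggctctt
Hist1h2ac (chromosome 13, 23681467 to 23683948, minus strand): ctaggagAAAAAAAAAAAAAAAgttctatg
Hist1h2be (chromosome 13, 23583670 to 23621124, minus strand): gagacctggAAAAAAAAAAAtcagttccta
In Hist1h2ap the run of 12 A ends directly before the stem-loop. Its nearest copy, Hist1h2ao, has the same run at the same place but 26 UMIs in kept cells, and it is not among the genes of the correlation below. In Hist1h2ae the run of 8 A ends 4 bases before it. Hist1h2ac has 15 A in a row and Hist1h2be 11, both far past the stem-loop. Levels are given as UMIs per 1000000 UMIs of the summed cells (CPM). Across the 35 members whose mean of both libraries reached 5 CPM, the length of the longest run and the mean CPM had a Spearman's rho of 0.54, and across the 9 such H2A members 0.80. These are descriptions across genes of the same 2 libraries. The runs were read in the models only, and whether priming took place at them was not tested.

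The models were sorted into 3 classes. In 21 members, all core genes, the stem-loop lies fewer than 100 bases before the end of a 1-exon model (stem-loop end). In 26 members the model runs on past it, is spliced, or continues for at least 100 bases after the stop codon (extended), and 4 of these hold no full stem-loop, Hist1h2bc, Hist2h2be, Hist1h2br and Hist1h2bp. In the other 15 members, Hist1h1b and Hist1h1a among them, the 1-exon model has no full stem-loop and stops within 100 bases of the stop codon (short model), so it does not say where the RNA ends.

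The promoters of 56 members were matched by position in RefSeq (build GRCm38.p6, 250 bases before to 50 bases after the start). The motif CCAAT, on either strand, was in 83.9% of them and in 37.4% of all 32851 promoters. It was in every matched promoter of H1 (4), H2A (16), H2B (14) and H3 (10), and in 3 of 12 of H4. The motif TATAAA was in 57.1% of member promoters and in 13.6% of all. The octamer ATTTGCAT was in 11 member promoters, 6 of H2A and 5 of H2B, or 19.6% against 1.74% of all. The motif AAACACA, known from H1 promoters, was in 3 of 4 promoters of H1 and in 1 promoter each of H2A and H2B, or 8.93% of member promoters against 7.18% of all. Hist1h1b and Hist1h1c, linker genes with opposite patterns over the cycle, both had AAACACA and CCAAT. Their 130 bases before the start are shown with Hist1h2ap for that contrast, and the capitals mark these 4 motifs on either strand.
Hist1h1b (chr13:21780626-21780755, minus strand): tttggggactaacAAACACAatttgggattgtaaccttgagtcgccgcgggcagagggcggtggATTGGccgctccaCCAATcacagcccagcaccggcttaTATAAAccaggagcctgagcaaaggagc
Hist1h1c (chr13:23738677-23738806, plus strand): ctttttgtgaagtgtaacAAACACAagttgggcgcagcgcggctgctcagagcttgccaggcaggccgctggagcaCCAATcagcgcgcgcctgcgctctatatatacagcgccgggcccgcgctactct
Hist1h2ap (chr13:21833476-21833605, minus strand): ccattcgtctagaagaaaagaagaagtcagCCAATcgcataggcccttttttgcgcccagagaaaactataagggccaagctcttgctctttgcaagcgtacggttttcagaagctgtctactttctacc

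The libraries held 7281 and 7833 cell barcodes with 63690481 and 65146263 UMIs, of which 6548 and 7078 cells were kept, with medians of 8575 and 8023 UMIs. The libraries shared 15 barcodes. All 5 markers of the sorted population (Kit, Ptprc, Cpa3, Gata2, Myb) were detected in both, with sums of 638 and 703 CPM. Usp18, the targeted gene, went against the genotype labels, at 5.68 CPM (330 UMIs) in the oil-labelled library (Usp18+/f) and 24.1 CPM (1435 UMIs) in the tamoxifen-labelled library (Usp18+/Δ). Isg15, an interferon-induced gene, had 21.0 and 116 CPM. The UMIs are counted near transcript ends, and the place of the deletion was not compared with them.

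Cells were placed in the cell cycle without any histone gene, from S and G2M gene lists on cells thinned to 3000 UMIs each. In the oil-labelled library, 21.1% of 6092 cells were called G1, 25.1% S and 53.8% G2M. In the tamoxifen-labelled library the shares were 27.8%, 24.5% and 47.7% of 6728 cells. Cells were also put in 8 sectors by the angle of both scores, from low in both (sectors 1 and 2) through early S (sector 4) and late S (sectors 5 and 6) to mitosis (sector 7). Genes outside the lists followed that order in both libraries: Mcm3, a subunit of the replicative helicase, and Ccne1, a cyclin of S phase entry, were highest in sector 4, Slbp in sector 5, and Ccna2 and Plk1, which act in G2 and mitosis, in sector 7.

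The member RNAs were higher in cycling cells. Of 3000 UMIs per cell, the median G1 cell held 2 member UMIs in the oil-labelled library and 1 in the tamoxifen-labelled library, the median S cell 3 and 2, and the median G2M cell 7 in both. Summed over members, the level went from 760 CPM in G1 cells to 1764 in S cells and 2779 in G2M cells of the oil-labelled library, and from 648 to 1863 and 2788 CPM in the other library. Sectors 5 and 6 hold cells with high scores for both lists, so late S and G2 cells are not separated by these calls.

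Linker and core genes reached their highest level in neighbouring sectors. The 5 linker genes together were highest in sector 5, at 1804 and 2115 CPM. H2A, H2B, H3 and H4 were each highest in sector 6, in both libraries. The difference between the highest and the lowest sector was 3.12 and 3.15 in log2 for H2A, 2.62 and 2.95 for H3, 2.15 and 2.25 for H4, and 1.54 and 1.79 for H2B. The H2B sum thus varied least over the cycle among these families in both libraries. Of the H2B level in G1 cells, Hist1h2bc gave 75.5 of 131 CPM and 64.9 of 113 CPM. This gene was highest in sector 1, and the H2B range without it was not taken.

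**Figure D1:**
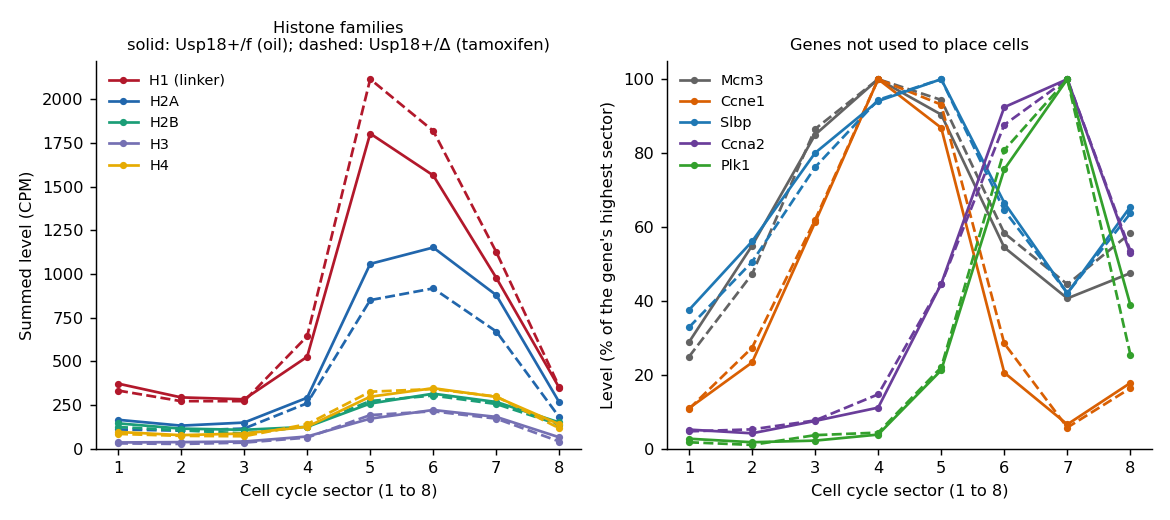
The left panel plots the summed level of each histone family in CPM (y axis) over the 8 cell cycle sectors (x axis), solid for the oil-labelled library and dashed for the tamoxifen-labelled library. The right panel plots 5 genes not used to place cells, as a percentage of each gene's highest sector. The linker sum is highest in sector 5 and the core families in sector 6, between Ccne1 (sector 4) and Plk1 (sector 7).

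Of the 35 members that averaged 5 CPM or more, 24 were at least 2-fold higher in S than in G1 cells in both libraries, against 4.88% of the 8877 genes at that level. These were 4 of 5 linker genes, 7 of 9 H2A, 6 of 9 H2B, 6 of 6 H3 and 1 of 6 H4. The median member had an S over G1 ratio of 1.46 and 1.87 in log2, against -0.02 and 0.00 over all such genes. Hist1h1c, Hist1h2bc and Hist3h2a, 3 of the 35, were at least 2-fold lower in S than in G1 cells in both libraries, against 2.03% of all such genes. In 19 of the 35 members the highest sector was sector 6 in both libraries, and in 7 it was sector 5. The share of all genes with these highest sectors was not taken, so both counts describe the members only.

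Among the linker genes, Hist1h1b gave the most UMIs and had the steepest pattern. It had 31.6 CPM in G1 cells, 443 in S and 641 in G2M cells of the oil-labelled library, and 18.1, 552 and 797 CPM in the other library. Its S over G1 ratio was 3.81 and 4.93 in log2. Hist1h1a went from 13.0 CPM in G1 to 83.8 in S and 61.5 in G2M cells, and from 8.78 to 93.8 and 73.9, so that it was lower in G2M than in S cells, unlike the other 3 linker genes with an S increase. Hist1h1e and Hist1h1d had S over G1 ratios of 1.46 and 1.79, and of 1.41 and 1.58. Hist1h1c went the other way. It had 219 CPM in G1 cells, 87.8 in S and 137 in G2M cells of the oil-labelled library, and 213, 94.7 and 141 in the other, with S over G1 ratios of -1.32 and -1.17.

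**Figure D2:**
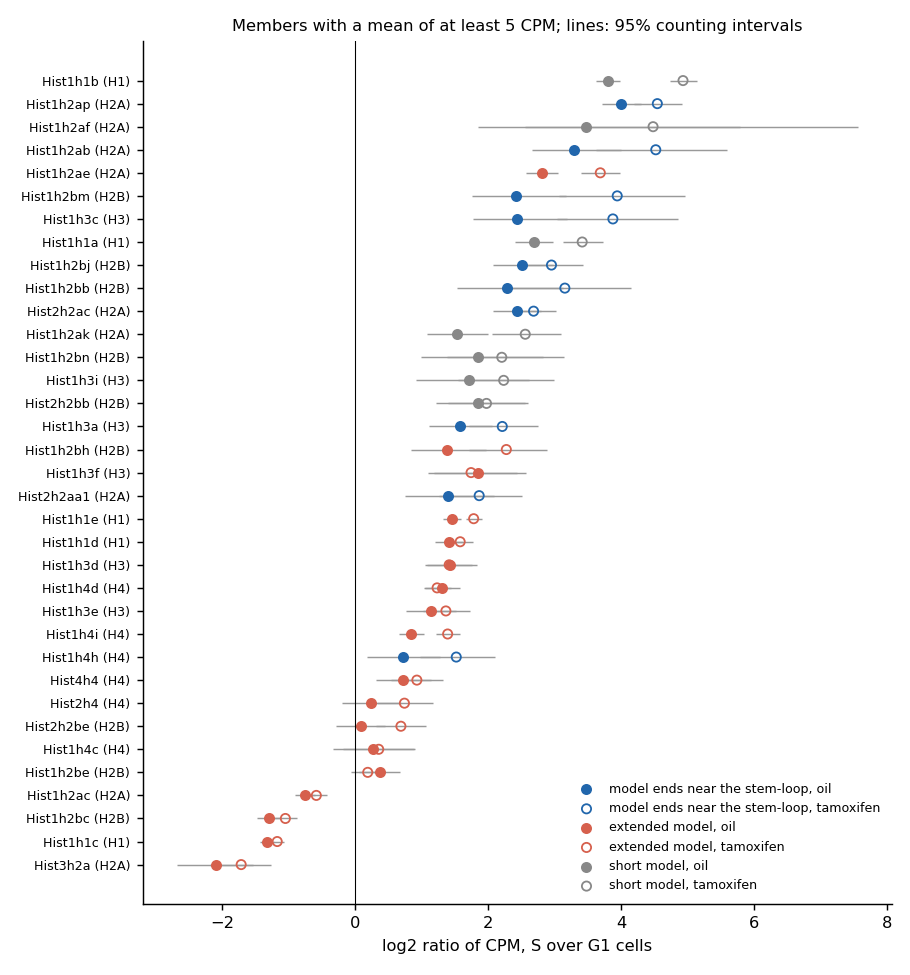
The log2 ratio of CPM in S over G1 cells (x axis) is plotted for each member that averaged 5 CPM or more (y axis, family in brackets), filled for the oil-labelled library and open for the tamoxifen-labelled library, coloured by the class of the gene model, with 95% counting intervals. Hist1h1b, at 3.81 and 4.93, is at the top and Hist3h2a, at -2.09 and -1.71, at the bottom, where the genes have extended models.

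Several H2A genes also rose steeply from G1 to S cells. Hist1h2ap had 11.96 CPM in G1 cells, 191 in S and 315 in G2M cells of the oil-labelled library, and 5.74, 134 and 199 in the other, with S over G1 ratios of 3.999 and 4.55. Hist1h2ab had ratios of 3.29 and 4.52 and Hist1h2af of 3.47 and 4.48. Hist1h2ae had 2.81 and 3.69, although its model runs on for 151 bases past the stem-loop. Hist1h2ac was lower in S than in G1 cells, at -0.75 and -0.58, and higher in G2M than in G1 cells, at 0.37 and 0.54, with its highest level in sector 7 in both libraries. With phases taken by sector, its mean S over G1 ratio turned to 0.35. Hist3h2a, with 504 and 498 UMIs, had 11.3 CPM in G1, 2.64 in S and 10.4 in G2M cells of the oil-labelled library, and 12.9, 3.96 and 8.25 in the other.

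In H2B, Hist1h2bj went up with S phase and Hist1h2bc went down. Hist1h2bj had 5.56 CPM in G1, 31.6 in S and 53.5 in G2M cells, and 3.91, 30.3 and 50.1 in the tamoxifen-labelled library. Hist1h2bc had 75.5 CPM in G1, 30.9 in S and 30.1 in G2M cells, and 64.9, 31.4 and 26.7 in the other library. Unlike Hist1h1c and Hist1h2ac, it did not come back up in G2M cells. Hist1h2be had S over G1 ratios of 0.37 and 0.19, with a mean that turned to -0.42 in cells with at most 5% mitochondrial UMIs, and Hist2h2be, with a long extended model, of 0.09 and 0.69.

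**Figure D3:**
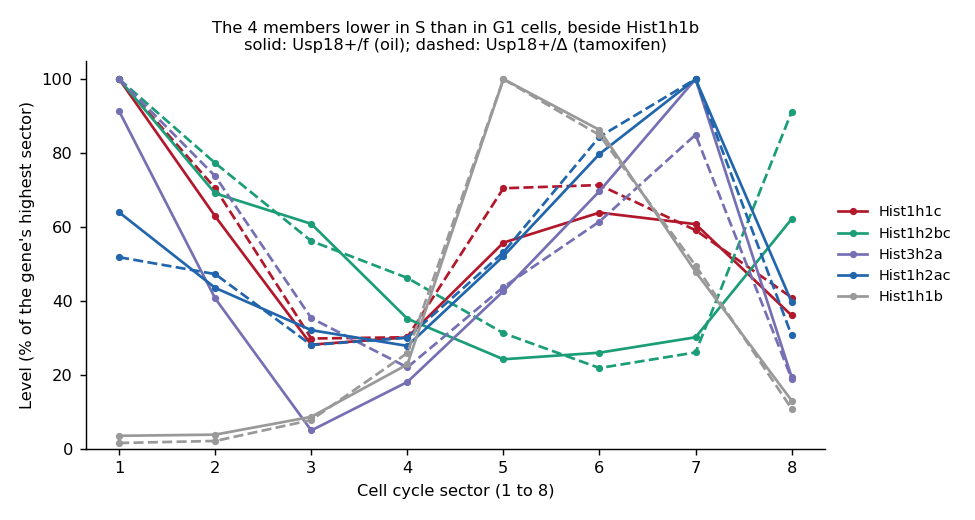
The level over the 8 cell cycle sectors (x axis), as a percentage of each gene's highest sector (y axis), is plotted for the 4 members of at least 5 CPM that were lower in S than in G1 cells and for Hist1h1b, solid for the oil-labelled library and dashed for the tamoxifen-labelled library. Hist1h1c and Hist1h2bc are highest in sector 1 and Hist1h2ac in sector 7 in both libraries, while Hist1h1b is highest in sector 5.

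The H3 and H4 genes varied less than the steepest H2A genes. Hist1h3c, with a stem-loop end, had S over G1 ratios of 2.44 and 3.88, and Hist1h3e and Hist1h3d, with extended models, had 1.14 and 1.37, and 1.44 and 1.42. In H4, Hist1h4d had 1.31 and 1.24 and was the single member of its family at least 2-fold higher in S cells in both libraries. Hist1h4i had 0.85 and 1.39, Hist1h4h 0.72 and 1.52, and Hist4h4 0.72 and 0.93.

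By class of model, the stem-loop end members together went from 55.05 CPM in G1 to 380 in S cells of the oil-labelled library and from 33.9 to 321 in the other, a log2 ratio of 2.79 and 3.24. The 26 extended members went from 644 to 803 CPM and from 576 to 838, a ratio of 0.32 and 0.54. Of their G1 sums, Hist1h1c gave 219 and 213 CPM, Hist1h2ac 88.2 and 64.6 CPM, and Hist1h2bc 75.5 and 64.9 CPM. These genes were lower in S than in G1 cells, so the extended ratio rests in part on them. The class ratio without them was not taken. The difference between both classes was 2.47 (2.33 to 2.61) and 2.70 (2.55 to 2.86), and among core genes alone it was 2.30 (2.15 to 2.45) and 2.50 (2.34 to 2.66). Hist1h2ap gave much of the stem-loop end sum, and without it the mean ratio of both libraries was 2.43 instead of 3.02. With phases taken by sector, the ratios of the stem-loop end class and of the other 41 members were both higher, as given with the processing. By gene, 9 of 10 stem-loop end members and 8 of 18 extended members that averaged 5 CPM or more were at least 2-fold higher in S cells, and so were all 7 members with a short model. All 4 of these 35 members with a negative ratio in both libraries were extended. Model length and the mean S over G1 ratio had a Spearman's rho of -0.65 over the 35 members. The 15 members with a short model cannot be assigned to either of these classes, and Hist1h1b gave most of their UMIs.

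Clustered H2A and H2B genes are often paired head to head with a shared promoter region. Of 11 such pairs among the members, with starts 176 to 660 bases apart, 10 joined an H2A to an H2B gene, and in 4 both genes averaged 5 CPM or more. Hist1h2ac and Hist1h2bc, 251 bases apart, were both lower in S than in G1 cells, with mean ratios of -0.67 and -1.17. Hist2h2ac and Hist2h2be, 239 bases apart, differed, at 2.56 and 0.39. Hist1h2ap and Hist1h2br, 236 bases apart, had 238 and 4.55 CPM in the oil-labelled library, but 0.172% of the 91-base stretches of Hist1h2br are its own, so its count is uncertain. In the other 2 pairs with both genes above 5 CPM the mean ratios were 2.04 and 2.03 for Hist1h2ak and Hist1h2bn and 1.83 and 1.80 for Hist1h2bh and Hist1h3f.

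Of 5970 genes that averaged 20 CPM or more, 5 that are no members had profiles over the 8 sectors most like the stem-loop end sum in the oil-labelled library. They were Neil3, a DNA glycosylase (Pearson's r 0.997, and 0.995 in the other library), Plk4, the kinase of centriole duplication (0.987 and 0.986), Esco2, a cohesin acetyltransferase of S phase (0.987 and 0.989), Ttf2 (0.985 and 0.971) and Pbk, a mitotic kinase (0.983 and 0.997). These r values are descriptions over 8 sectors of 1 library.

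Between the libraries, summed over all kept cells, the linker genes were higher and the core genes lower in the tamoxifen-labelled library. The linker sum was 987 CPM in the oil-labelled library and 1083 CPM in the other, a log2 ratio of 0.13 (0.12 to 0.15). This direction turned within G1 cells (-0.14), in cells with at most 5% mitochondrial UMIs (-0.20) and in the mean over single cells (-0.022). The core sum was 1262 and 1051 CPM, a ratio of -0.26 (-0.28 to -0.25). The difference between the ratios of linker and core was 0.40 (0.38 to 0.42). Linker UMIs made up 43.9% of member UMIs in the oil-labelled library and 50.8% in the other. All members together had 2249 and 2134 CPM (-0.08, -0.09 to -0.06), with -0.23 within G1, 0.078 within S and 0.0050 within G2M cells, and -0.31 in cells with at most 5% mitochondrial UMIs.

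Among the core families, H2A differed most. Its sum was 681 and 506 CPM, a log2 ratio of -0.43 (-0.45 to -0.41). H2B was 218 and 204 CPM (-0.10, -0.13 to -0.06), H3 135 and 122 CPM (-0.14, -0.19 to -0.10) and H4 228 and 219 CPM (-0.06, -0.09 to -0.02). Hist1h2ap accounted for part of the H2A difference, and without it the H2A ratio was -0.29 (-0.32 to -0.26), which was below that of H2B by 0.19 (-0.24 to -0.15 for the difference).

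Of the 35 members that averaged 5 CPM or more, 9 were lower by at least 0.25 in log2, against 2.41% of all genes at that level, and 0 were higher by as much, against 5.25%. Over the same 35 members, the counts lower and higher were 21 and 2 within G1 cells, against 11.5% and 10.1% of the 8877 genes, and 4 and 6 within S cells, against 5.04% and 6.69%. They were 8 and 3 within G2M cells, against 2.74% and 5.27%, and 18 and 4 in cells with at most 5% mitochondrial UMIs, against 20.5% and 18.4%. Some of the 35 were low in G1 cells, such as Hist1h2ab at 2.49 and 0.869 CPM. Within G1 cells 19 members reached 5 CPM, of which 8 were lower and 2 higher. The share over all genes that reached 5 CPM within G1 cells was not taken. The 9 were all core genes, 5 of H2A (Hist1h2ap, Hist1h2ab, Hist1h2ae, Hist1h2ac and Hist1h2ak), 2 of H2B (Hist1h2bb and Hist2h2be), Hist1h3f and Hist4h4. Within S cells the interval held 0 for 5 of these 9, Hist1h2ak (0.11), Hist1h2bb (0.013), Hist2h2be (0.054), Hist4h4 (-0.019) and Hist1h3f (-0.36), and the ratio of Hist1h2ae was -0.13, short of 0.25. The median member ratio was -0.07 against 0.01 over all 8877 genes, and the interval of 15 members lay below 0, against 19.6% of these genes, and that of 6 above it, against 22.5%.

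**Figure D4:**
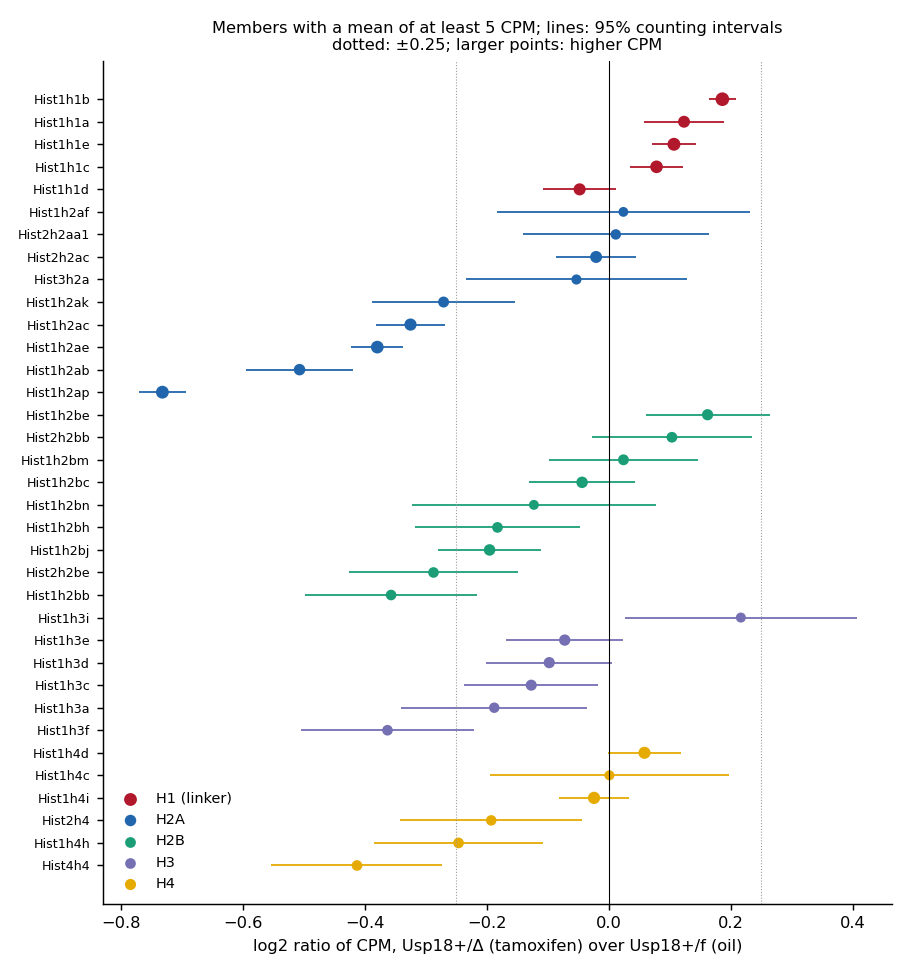
The log2 ratio of CPM in the tamoxifen-labelled library over the oil-labelled library (x axis) is plotted for each member that averaged 5 CPM or more (y axis), grouped and coloured by family, with 95% counting intervals and dotted lines at 0.25 and -0.25. Hist1h2ap, at -0.73, is the lowest, 4 of the 5 linker genes lie above 0, and no member passes 0.25.

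Hist1h1b had 509 CPM (29570 UMIs) in the oil-labelled library and 579 CPM (34487 UMIs) in the other, a ratio of 0.19 (0.16 to 0.21). Hist1h1a had 60.3 and 65.6 CPM (0.12), Hist1h1e 202 and 218 CPM (0.11) and Hist1h1c 139 and 146 CPM (0.08). Hist1h1d, at 76.6 and 74.1 CPM, had a ratio of -0.05 (-0.11 to 0.01), with an interval that holds 0. Hist1h1b, Hist1h1a and Hist1h1e turned below 0 in each setting where the linker sum did, Hist1h1b and Hist1h1a also in the mean of the phases (-0.058 and -0.047), and Hist1h1c within G1 cells. Of the linker difference of 96.3 CPM, Hist1h1b gave 70.1 CPM. Hist1h1e overlaps Hist1h2be on the same strand, so reads of these genes could be split between them.

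Hist1h2ap had 238 CPM (13848 UMIs) and 144 CPM (8548 UMIs), a ratio of -0.73 (-0.77 to -0.69). Of its 91-base stretches, 7.65% are found in no other histone gene, and its nearest copy is Hist1h2ao, so its UMIs may be shared with near-identical genes. Hist1h2ae had 176 and 135 CPM (-0.38, -0.42 to -0.34), Hist1h2ab 43.8 and 30.8 CPM (-0.51, -0.59 to -0.42) and Hist1h2ac 95.1 and 75.9 CPM (-0.33, -0.38 to -0.27). Of the 91-base stretches of Hist1h2ab, 46.5% are its own. Not every H2A gene with a steep S pattern was lower by as much, as shown by 2 further genes, of which Hist2h2ac was picked after its values were seen. Hist2h2ac had 64.4 and 63.5 CPM (-0.02, -0.09 to 0.04) and Hist1h2af 6.53 and 6.63 CPM (0.02, -0.18 to 0.23).

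In H2B, Hist1h2bj had 41.1 and 35.9 CPM (-0.20, -0.28 to -0.11), Hist1h2bc 37.2 and 36.1 CPM (-0.04, -0.13 to 0.04) and Hist1h2be 25.3 and 28.3 CPM (0.16, 0.06 to 0.26). In H3, Hist1h3i had 7.30 and 8.48 CPM (0.22, 0.03 to 0.41), which was the highest ratio among the 35 members, and Hist1h3c 24.1 and 22.1 CPM (-0.13). Within G1 cells Hist1h3i was at -0.031 (-1.07 to 1.04), and within S cells Hist1h3c was at 0.25 (-0.037 to 0.55). Hist1h3i shares most of its sequence with other H3 genes, with 27.7% of its 91-base stretches its own. Hist1h3e and Hist1h3d had ratios of -0.07 and -0.10, and no 91-base stretch near the end of the Hist1h3e model is its own. In H4, Hist4h4 had 16.5 and 12.4 CPM (-0.41, -0.55 to -0.27), Hist1h4h had 15.98 and 13.5 CPM (-0.25, -0.38 to -0.11), Hist1h4i 85.6 and 84.1 CPM (-0.02) and Hist1h4d 74.99 and 78.1 CPM (0.06). Within S cells Hist4h4 was at -0.019 (-0.32 to 0.28) and Hist1h4h at 0.17 (-0.21 to 0.55).

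The remaining members that averaged 5 CPM or more are given for completeness, outside the rule for named genes. In H2A, Hist1h2ak had 22.3 and 18.5 CPM (-0.27, -0.39 to -0.15), with S over G1 ratios of 1.53 and 2.56, and Hist2h2aa1 had 11.9 and 11.99 CPM (0.01), of which 11.7% of the 91-base stretches are its own. In H2B, Hist1h2bm had 18.7 and 19.03 CPM (0.02) and Hist2h2bb 15.6 and 16.8 CPM (0.10), both higher in S cells, at 2.43 and 3.94, and at 1.86 and 1.98. Hist1h2bb, at 15.9 and 12.4 CPM (-0.36, -0.50 to -0.22), and Hist2h2be, at 16.03 and 13.1 CPM (-0.29, -0.43 to -0.15), were lower by over 0.25 although their S over G1 ratios were far apart, at 2.28 and 3.16 for the first and 0.09 and 0.69 for the second. Hist1h2bh and Hist1h2bn had library ratios of -0.18 and -0.12. In H3, Hist1h3f had 15.9 and 12.3 CPM (-0.36, -0.50 to -0.22) and Hist1h3a 12.9 and 11.3 CPM (-0.19, -0.34 to -0.04). Of the 91-base stretches of Hist1h3f, 62.9% are its own, but none near the end of its model. In H4, Hist2h4 had 13.4 and 11.7 CPM (-0.19, -0.34 to -0.04) and Hist1h4c 7.34 and 7.34 CPM (0.00099), with S over G1 ratios of 0.27 and 0.36. The other 27 members ranged from 24 UMIs (Hist1h3h) to 563 UMIs (Hist3h2ba) over the kept cells of both libraries, too few to give each of them a phase pattern.

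Because the tamoxifen-labelled library had more G1 and fewer G2M cells, the ratios were also taken within phases. The linker ratio was -0.14 in G1, 0.23 in S and 0.24 in G2M cells, so that its direction in G1 cells was opposite to that in S and G2M cells. The core ratio was -0.31, -0.09 and -0.20. Without Hist1h2ap it was -0.30 in G1, 0.0084 (-0.031 to 0.048) in S and -0.10 in G2M cells, so that in S cells the core difference rested on that gene. The H2A ratio was -0.51, -0.25 and -0.35, and without Hist1h2ap -0.48, -0.11 and -0.20, below 0 in all 3 phases either way, whereas H2B had -0.20, 0.03 and -0.05, H3 -0.30, 0.01 and -0.05, and H4 -0.16, 0.17 and -0.0041. The difference between linker and core was 0.17 (0.08 to 0.27) in G1, 0.32 (0.27 to 0.37) in S and 0.44 (0.41 to 0.47) in G2M cells.

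The ratios were also taken within the 8 sectors. The linker ratio was 0.29 (0.23 to 0.35) in sector 4, 0.23 in sector 5, 0.22 in sector 6 and 0.20 in sector 7, and -0.16 (-0.24 to -0.08) in sector 1. The H2A ratio lay between -0.58 in sector 1 and -0.16 in sector 4, with an interval below 0 in all 8 sectors. Without Hist1h2ap its interval in sector 4 held 0, at -0.055 (-0.16 to 0.049). Hist1h1b was lower in sector 1, at 36.7 and 19.8 CPM (-0.89, -1.18 to -0.60), and higher in sector 5, at 1045 and 1261 CPM (0.27, 0.23 to 0.31). Hist1h2ap was lower in sector 1, at 14.8 and 7.20 CPM, and in sector 5, at 438 and 283 CPM (-0.63, -0.70 to -0.56), and its interval lay below 0 in every sector. The S over G1 ratio was higher in the tamoxifen-labelled library for 31 of the 35 members, against 54.9% of all 8877 genes, while the G1 level of all members together was lower there.

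**Figure D5:**
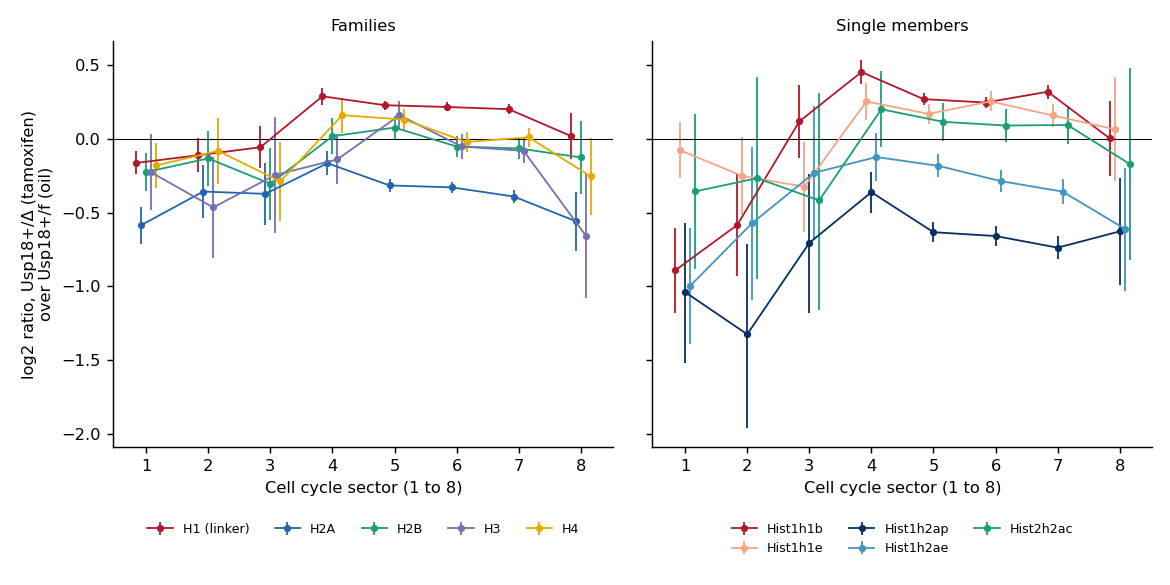
The log2 ratio of CPM in the tamoxifen-labelled library over the oil-labelled library (y axis) is plotted within each of the 8 cell cycle sectors (x axis), for the families on the left and for single members on the right, with 95% counting intervals. H2A and Hist1h2ap lie below 0 in every sector, and H1 and Hist1h1b lie below 0 in sector 1 and above 0 in sectors 4 to 7.

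Some marker sums of other cell types differed between the libraries or phases. The 5 neutrophil markers summed to 0.0344 CPM in the oil-labelled library, where S100a8, Ngp, Camp and Ltf were at 0, and to 22.5 CPM in the other, where they reached 115 CPM in G1 cells and 0.416 and 0.457 CPM in S and G2M cells. The 5 erythroid markers summed to 4027 and 4183 CPM, to 8026 and 10140 CPM in G1, 2764 and 2198 CPM in S, and 3502 and 2759 CPM in G2M cells. The 5 macrophage markers summed to 2.08 and 5.61 CPM, and in S cells to 0.929 and 5.55 CPM. The T cell and B cell lists lay between 0.118 and 0.437 CPM in both libraries, and the megakaryocyte list was at 5.03 and 5.63 CPM. No cell was assigned to these types, and whether the RNA came from such cells or from the leukemia cells was not tested. The paper reports S100a8 as upregulated in bulk RNA of sorted Usp18+/Δ leukemia cells. The part of these markers in the histone ratios was not tested.

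Of 18 genes for the processing and decay of histone RNA, 17 averaged 5 CPM or more. None was lower by 0.25 and 1 was higher, against 5.25% of all genes that averaged 5 CPM or more. It was Zcchc11, a terminal uridylyltransferase, at 80.2 and 99.6 CPM (0.31, 0.26 to 0.37), with 0.27, 0.24 and 0.33 within G1, S and G2M cells. Slbp, the stem-loop binding protein, had 176 and 164 CPM (-0.10) and S over G1 ratios of 1.26 and 1.43. Casp8ap2, which acts in histone RNA processing, had 1.12 and 1.20, and no other gene of the list was 2-fold higher in S cells in both libraries.

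Of 13 histone chaperone genes, none was lower by 0.25 and 1 was higher, against the same 5.25%. It was Daxx, at 25.2 and 31.4 CPM (0.32, 0.22 to 0.42), with 0.66 in G1, 0.15 (-0.062 to 0.36) in S and 0.27 in G2M cells. Of the 13, 4 were at least 2-fold higher in S cells in both libraries, against 4.88% of all genes, Asf1b (3.05 and 2.86), Chaf1a (2.13 and 2.27), Nasp (1.43 and 1.77) and Hat1 (1.31 and 1.41). Of 11 replacement histone genes, which lie outside the clusters and most of which give ordinary poly(A) RNA, 9 averaged 5 CPM or more and 3 were lower by 0.25, against 2.41% of all genes. H2afx, the H2A variant phosphorylated at DNA breaks, had 158 and 127 CPM (-0.32), Cenpa, the H3 variant of centromeres, 282 and 231 CPM (-0.29), and H2afv 190 and 157 CPM (-0.28). Within G1, S and G2M cells the ratios were -0.29, 0.02 and -0.25 for H2afx, -0.20, 0.06 and -0.21 for Cenpa, and -0.22, -0.20 and -0.26 for H2afv, and the S cell intervals of H2afx and Cenpa hold 0. H2afz had 2528 and 2211 CPM (-0.19, -0.20 to -0.18). None of the 9 was 2-fold higher in S than in G1 cells in both libraries.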

How the data were processed

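The deposited values are UMI counts per gene and cell, which the authors made with Cell Ranger 3.0.2 on the mm10 build from 10x Genomics libraries that capture RNA at poly(A) runs, with the cells of 3 mice pooled per library. The annotation and the counting of reads with several matches are not given in the sources used here. Barcodes under 500 genes or above 10% mitochondrial UMIs were dropped, and the 5% with the highest Scrublet scores were removed in each library, since the automatic threshold marked under 0.5%. UMIs were summed over cells and scaled to 1000000 UMIs (CPM). Ratios are on the log2 scale without a pseudocount, with exact conditional 95% counting intervals. These were tried on counts simulated with counting error alone, which cannot show how they hold for real cells. With 1 library per group there was no test, and called means past a fold: 0.25 in log2 between libraries, or 2-fold between S and G1 cells in both. Phases were called with scanpy 1.11.5 without histone genes, leaving out 456 and 350 cells under 3000 UMIs. Gene classes came from GENCODE M21 models: the written rule put every model other than a stem-loop end in 1 class of 41 genes, and the split of these into 26 and 15 was made after seeing the models. Named genes were all linker members and the 3 members of each core family with the highest CPM. Added to these were the members with the highest CPM in the class of 41, the highest and lowest ratios, and pathway genes past a fold. Members, lists and rules were chosen with earlier results of these data known. The alternatives tried were other cell filters, scalings, phase calls and gene classes.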

Additional observations from a re-analysis of the deposited data

Results flagged for a closer look

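Barcodes left out for more than 10% mitochondrial UMIs also held clustered histone RNA, in data that no comparison above uses. The members summed to 1520 CPM in the 290 such barcodes of the oil-labelled library and to 1747 CPM in those of the tamoxifen-labelled library, against 2249 and 2134 CPM in the kept cells.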

How the results depend on the processing

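Depth limits the low members: 27 of the 62 had a mean under 5 CPM, and Hist1h3h had 11 and 13 UMIs in kept cells. Using all barcodes or keeping suspected doublets left each library ratio and count near its value above. The cause of the changes below was not tested. The library ratio of all members was -0.31 with at most 5% mitochondrial UMIs, -0.090 with median-of-ratios size factors, -0.064 with a total that leaves out mitochondrial, ribosomal protein and haemoglobin genes, -0.19 as a mean over single cells, -0.23 within G1, 0.078 within S and 0.0050 within G2M cells, -0.049 as the mean of the 3 phases, -0.014 without Hist1h2ap and -0.00089 over the 39 members with at least 50% of their 91-base stretches their own. The linker ratio was -0.20 with at most 5% mitochondrial UMIs, -0.022 as a mean over single cells, -0.14 within G1, 0.23 within S and 0.24 within G2M cells, and 0.11 as the mean of the phases. Cells with at most 5% mitochondrial UMIs made up 15.4% and 10.3% of the kept cells, and of the 641 and 568 of them deep enough for a phase, 12.6% and 46.3% were called G1. The core ratio stayed below 0 in these alternatives, at -0.42, -0.36, -0.31, -0.087, -0.20 and -0.20 in the same order, and was -0.17 without Hist1h2ap and -0.16 over the more distinct members. The counts of members lower or higher by 0.25 re-apply the minimum of 5 CPM under each setting, which 35 members passed in all kept cells, 42 with the reduced total, 37 with at most 5% mitochondrial UMIs, and 19, 33 and 39 within G1, S and G2M cells. The count lower was 20 with at most 5% mitochondrial UMIs, 14 with the reduced total, 14 as a mean over single cells, 8 within G1, 4 within S and 11 within G2M cells and 23 with no filter on the mean. The count higher by 0.25 was 4 with at most 5% mitochondrial UMIs, 2 within G1, 5 within S and 3 within G2M cells, and 1 with no filter. Over the same 35 members, the count lower was 18 with at most 5% mitochondrial UMIs, 9 with the reduced total, 14 as a mean over single cells, and 21, 4 and 8 within G1, S and G2M cells, and the count higher was 4 with at most 5% mitochondrial UMIs and 2, 6 and 3 within these phases. With the reduced total, the mean over single cells and no filter, the share over all genes was not taken. The counts under those settings describe the members only. The S over G1 ratio of stem-loop end members was 2.80 on cells thinned to 1500 UMIs, 4.01 with phases by sector, 2.05 when all but 3 genes were put in that class, 2.43 without Hist1h2ap and 2.46 over the more distinct members. For the other 41 members it was 1.15, 1.21 with all barcodes, 1.21 with doublets kept, 0.97 with at most 5% mitochondrial UMIs, 0.96 as a mean over single cells, 1.21 on cells thinned to 1500 UMIs, 2.13 with phases by sector, -1.13 when the class was only Hist1h1c, Hist1h2bc and Hist2h2be, and 0.43 for the 26 extended members. With no filter on the mean, 38 members were at least 2-fold higher in S cells, and the share of all genes under that setting was not taken. The alternatives without Hist1h2ap, over the more distinct members, for the 26 extended members, and over the same 35 members were chosen after seeing the data. For single named members of the clusters, 236 values stayed within the interval of the reported ratio and 118 moved outside it. A further 17 changed direction, from a reported ratio whose interval lay on 1 side of 0. Pathway genes are not in this count, and of these H2afx and Cenpa also turned within S cells, as given above. Between the libraries, with at most 5% mitochondrial UMIs, Hist1h1b turned to -0.38, Hist1h1e to -0.27 and Hist1h1a to -0.24, and as a mean over single cells to -0.030, -0.062 and -0.039. Within G1 cells Hist1h1b was at -0.81, Hist1h1a at -0.57, Hist1h1e at -0.14, Hist1h1c at -0.045 and Hist1h3i at -0.031, and within S cells Hist1h3c was at 0.25 and Hist1h4h at 0.17. As the mean of the phases, Hist1h1b was at -0.058 and Hist1h1a at -0.047. Of the S over G1 ratios, Hist1h2ac turned to 0.35 with phases by sector and Hist1h2be to -0.42 with at most 5% mitochondrial UMIs. No paired analysis was possible because there was a single library in each group.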

Other observations

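Kept cells with under 2% mitochondrial UMIs had more clustered histone RNA than the other kept cells, which did not hold at a limit of 5% in the tamoxifen-labelled library, where linker members had 1026 CPM at or under the limit and 1088 CPM over it, and core members 1051 CPM on both sides. In the oil-labelled library they had 1178 and 1402 CPM at or under 5% and 963 and 1244 CPM over it. In the oil-labelled library, 313 kept cells had under 2% mitochondrial UMIs, and their members summed to 4842 CPM (4627 to 5065), against 2231 CPM in the other 6235 kept cells. In the tamoxifen-labelled library, 61 such cells had 3599 CPM (3226 to 4004), against 2132 CPM in the other 7017. These cells are shallow, with medians of 1068 and 1236 UMIs against 8786 and 8068, so they received no phase. Linker members gave 2714 and 2140 CPM of these sums and core members 2129 and 1459 CPM. The barcodes removed for high doublet scores had 2301 CPM in the oil-labelled library and 2226 CPM in the tamoxifen-labelled library. Barcodes left out for under 500 genes had 2524 CPM (410 member UMIs) and 496 CPM (68 member UMIs).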
